A study of Mus musculus with 2 samples.

Results

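NMDA receptor transcripts were examined in laser-captured Purkinje cells, the large inhibitory output neurons of the cerebellar cortex. The family consists of 7 of the 43346 mouse genes quantified: Grin1, Grin2a, Grin2b, Grin2c, Grin2d, Grin3a and Grin3b. They were chosen by symbol alone, and each symbol matched 1 gene. The material was 2 pools of 50 Purkinje cells each, labelled as wild-type male C57Bl6 mouse (strain label B6NCrl) aged 8 months, with no treatment or transgene given. The pools are biological replicates 1 and 2 of a single group and carry the same donor identifier. Separate animals are therefore not established, and differences between the pools may be technical. No conditions could be compared within a single group, so no p-value was computed, and values are those of pool 1 and pool 2 or their mean ± SD (n = 2).

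NMDA receptors are glutamate-gated cation channels that also need glycine or D-serine, and they pass calcium once depolarization has relieved their magnesium block. The obligatory GluN1 subunit (Grin1) assembles with glutamate-binding GluN2 subunits (Grin2a to Grin2d), and sometimes with glycine-binding GluN3 subunits (Grin3a, Grin3b). In the cerebellum the receptor is best known in granule cells and interneurons, while excitation of Purkinje cells is carried mainly by AMPA receptors, and functional NMDA receptors of adult Purkinje cells have been described at climbing fibre synapses.

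The libraries held 23830685 expected counts (estimated reads) in pool 1 and 27907662 in pool 2, and ERCC spike-in RNAs took 1.40% and 0.940% of them. All 12 Purkinje cell markers reached a TPM (a relative transcript level corrected for transcript length) of 1 in both pools, led by Pcp4 (16756 and 17167) and Gng13 (9570 and 9861). RNA of other cells was present as well. The list of Bergmann glia and astrocyte markers, all 11 of them detected, summed to 4428 TPM in pool 1 and 4657 TPM in pool 2, with Apoe and Slc1a3 the highest. Granule cell markers summed to 126.8 and 161.2 TPM, molecular layer interneuron markers to 55.34 and 72.31 TPM, and Golgi and glycinergic interneuron markers to 9.91 and 23.2 TPM. The 5 blood markers, led by Hba-a2 and Hbb-bs, summed to 650.9 TPM in pool 1 and 2274 TPM in pool 2. Levels below describe the pools, in which fewer cells of a type and less RNA per cell cannot be told apart.

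Grin1 led the family, Grin2b, Grin3a and Grin2a followed at lower levels, Grin2c lay near the threshold, and Grin2d and Grin3b were close to 0. Of the 7 genes, 4 reached a TPM of 1 in both pools (Grin1, Grin2a, Grin2b and Grin3a). The same threshold was passed by 51.7% of the 21474 named protein-coding genes, so a count of 4 in 7 is near the background. Grin1 stood at percentile 86.2 of protein-coding genes in pool 1 and 85.8 in pool 2, and Grin2b at 69.5 and 68.9. The others lay between percentiles 29.8 (Grin3b in pool 2) and 57.7 (Grin3a in pool 1).

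Grin1, which encodes the glycine-binding GluN1 subunit found in every NMDA receptor, lies on the minus strand of chromosome 2 from 25291181 to 25319187 (GRCm38, the build called mm10). It had 35.58 TPM in pool 1 (34.0 to 37.2 as the exact Poisson 95% interval of 1865.3 estimated reads) and 32.06 TPM in pool 2 (30.5 to 33.7, from 1562.4). These intervals did not overlap, but they treat each read of the gene as carrying the same TPM. The short Grin1-209 held 10.7 TPM in pool 1 from 90.9 counts and 15.74 TPM in pool 2 from 169.5. The intervals are thus too narrow, and a pool difference beyond counting error is not established. The mean of 33.82 ± 2.49 TPM was 4.03 times that of the next gene, Grin2b, and no value of any other member came near either pool. Grin1 held 69.13% of the summed family TPM in pool 1 and 68.52% in pool 2.

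Not all of the TPM of Grin1 was assigned to transcripts that encode the subunit. A transcript is called full-length coding here when its annotated coding sequence is complete and reaches at least 90% of the longest one of the gene, and 8 of the 14 Grin1 transcripts meet this. These 8 summed to 22.06 TPM in pool 1 and 13.2 TPM in pool 2, or 62.0% and 41.2% of the gene's TPM, but 87.6% and 79.4% of its expected counts. Most of the remainder was Grin1-209, a noncoding transcript of 527 nt in 3 exons. It took 30.08% of the gene's TPM in pool 1 and 49.09% in pool 2 from 90.9 and 169.5 expected counts, which were 4.87% and 10.8% of those of the gene. All 527 of its bases lie within exons of the full-length transcripts, so reads inside its exons fit both kinds and were divided by estimation. Its join of the second exon to the last occurs in no full-length transcript, so reads across that join fit Grin1-209 and none of those. The posterior mean of its counts, with the posterior SD, was 91.0 ± 14.8 in pool 1 and 169.7 ± 12.9 in pool 2. Grin1-209 is the leading transcript of pool 2 and the second of pool 1.

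**Figure D1:**
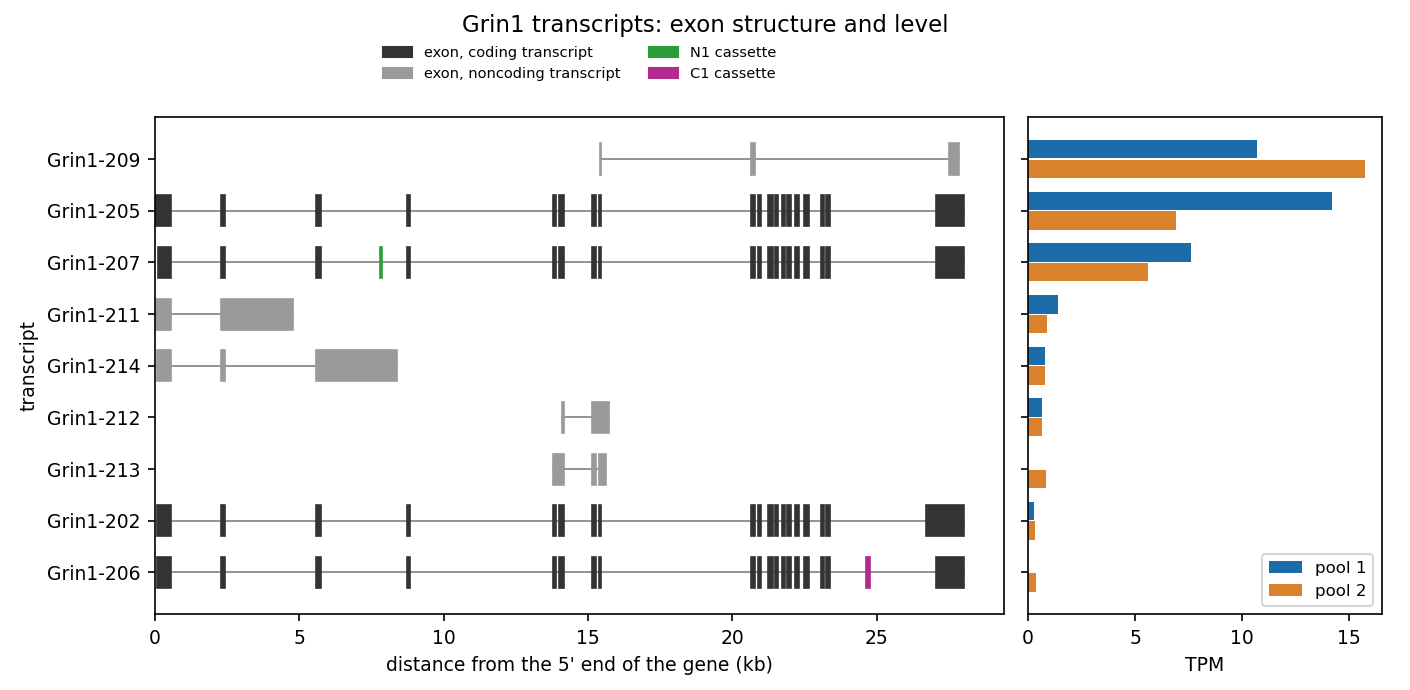
Exon structure of the Grin1 transcripts with a TPM above 0 in either pool, drawn to scale as distance in kb from the 5′ end of the gene, with their TPM in pool 1 and pool 2 as bars. The short Grin1-209 had 10.7 and 15.74 TPM, the full-length Grin1-205 14.2 and 6.91 TPM, and Grin1-207, which has the N1 cassette, 7.6 and 5.61 TPM.

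Full-length Grin1 RNA came almost wholly from forms that lack the C1 cassette and end in C2′. GluN1 is spliced at an N-terminal cassette, N1, which lies in the extracellular part and alters the sensitivity to protons and polyamines, and at the C-terminus, where C1 carries an endoplasmic reticulum retention signal and phosphorylation sites, and where the last exon ends in C2 or C2′. The choice of C2′ removes the first stretch of the last exon, shifts the reading frame and gives a different tail, known for a motif that promotes export to the cell surface. The sequences that define these forms are shown because the shares below turn on them, each 5′ to 3′ on the minus strand of chromosome 2 of GRCm38, with the stop codon in capitals.
N1 cassette: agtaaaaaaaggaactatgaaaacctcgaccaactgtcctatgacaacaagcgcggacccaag
C1 cassette: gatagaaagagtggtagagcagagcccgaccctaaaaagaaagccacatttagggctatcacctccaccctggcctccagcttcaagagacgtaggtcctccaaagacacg
C2 coding end: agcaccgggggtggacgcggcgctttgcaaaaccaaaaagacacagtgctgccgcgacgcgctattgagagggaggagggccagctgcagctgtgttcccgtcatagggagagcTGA
C2′ coding end: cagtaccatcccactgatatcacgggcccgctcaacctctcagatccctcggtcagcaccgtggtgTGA
The N1 cassette spans 63 bases (chr2:25311343-25311405) and adds 21 codons. C1 spans 111 bases (chr2:25294438-25294548) and adds 37 codons. The last exon is 1304 bases long in C2 transcripts and 948 in C2′ transcripts, which skip 356 bases (chr2:25292129-25292484). Its coding part, stop codon included, is 117 bases in C2 (chr2:25292368-25292484) and 69 bases in C2′ (chr2:25292060-25292128).

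C2′ transcripts made up 98.82% of the full-length coding Grin1 TPM in pool 1 and 97.65% in pool 2. The remainder in C2 form was Grin1-202, with 0.26 and 0.31 TPM. C1 transcripts were listed at 0% in pool 1 and took 2.80% in pool 2, all of it Grin1-206 (0 and 0.37 TPM), and the other 3 transcripts with C1 (Grin1-201, Grin1-204 and Grin1-208) were listed at 0 in both pools. By the deposited posterior mean, which spreads uncertain reads over all transcripts, the C1 share was 4.43% in pool 1 and 6.97% in pool 2, and the C2′ share 97.21% and 95.05%. A low C1 share is thus common to both estimates, while its size is not settled by them.

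By the estimated levels, the N1 cassette was in a minority of the full-length RNA in both pools. Grin1-205, with 885 codons and without N1, had 14.2 TPM in pool 1 and 6.91 TPM in pool 2. The form with N1, Grin1-207, with 906 codons, had 7.6 and 5.61 TPM. In the usual nomenclature these correspond to GluN1-4a and GluN1-4b. The N1 share was 34.45% in pool 1 and 42.5% in pool 2 (38.48% ± 5.69), 38.23% by expected counts and 37.1% by the posterior mean. The posterior mean of the counts, with the posterior SD, was 1010 ± 103 in pool 1 and 676.4 ± 126 in pool 2 for Grin1-205. For Grin1-207 it was 523.0 ± 104 in pool 1 and 433.3 ± 120 in pool 2. The difference between the transcripts was larger than either single SD in each pool, and larger in pool 1 than in pool 2. The SD of that difference was not computed, and the transcripts compete for shared reads. How firm the N1 minority is, above all in pool 2, is thus not settled.

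Among the GluN2 subunits, which bind glutamate and set the kinetics and magnesium sensitivity of the receptor, the leading gene depended on the transcript length by which the reads were divided. By gene TPM it was Grin2b in both pools. By full-length coding transcripts it was Grin2a in pool 1 and Grin2c in pool 2, and Grin2d, the subunit of slow receptors with weak magnesium block, was the lowest by either measure. The GluN2 genes together had 12.4 TPM in pool 1 and 12.15 TPM in pool 2, of which 3.4 and 3.7 TPM were full-length coding.

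Grin2b, the GluN2B gene that predominates early in brain development (chromosome 6, 135713233 to 136173511, minus strand), had 8.98 TPM in pool 1 (8.21 to 9.80, from 500 counts) and 7.8 TPM in pool 2 (7.11 to 8.53, from 476). The counting intervals of the pools overlapped, and both values lay above those of every other GluN2 gene. Its leading transcript in both pools was Grin2b-204, a 703-nt form of 4 exons from the 5′ end of the gene, whose annotated coding sequence breaks off after 106 bases. It had 6.15 TPM in pool 1 and 4.12 TPM in pool 2 from 73.75 and 62.7 counts. The counting intervals above rest on all counts of the gene, each taken to carry the same TPM, and so are too narrow. Grin2b-205, of 2461 nt and with a partial coding sequence of 1011 bases, had 1.75 and 3.01 TPM. The full-length coding Grin2b-201 and Grin2b-202 summed to 1.08 TPM in pool 1 and 0.66 TPM in pool 2. That was 12.0% and 8.47% of the gene's TPM but 68.9% and 49.2% of its counts, because Grin2b-201 is 23640 nt long and its reads are divided by that length. Its full-length counts alone, 344.3 in pool 1 and 234.3 in pool 2, were above those of Grin2a (118.2 and 77.86). They were also above those of Grin2c (73 and 233), though hardly so in pool 2. The length by which the counts are divided thus sets the place of Grin2b.

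Grin2a, the GluN2A gene whose product gives fast receptors in the mature brain (chromosome 16, 9567898 to 9995560, minus strand), had 2.36 TPM in pool 1 (1.99 to 2.78, from 140 counts) and 1.97 TPM in pool 2 (1.62 to 2.37, from 111). Its counting intervals overlapped too. They are also too narrow, since the short Grin2a-203 held much of the TPM from few counts. The full-length Grin2a-202 led in pool 1 with 53.49% of the gene's TPM (1.26 TPM), and the retained-intron transcript Grin2a-203 led in pool 2 with 66.78% (1.32 TPM, from 33.14 counts). The longest Grin2a transcript in the files was 4820 nt, whereas GENCODE release M21 lists one of 14634 nt with a longer 3′ end. Reads from the additional stretch were not counted for the gene in the deposited values, and how many there were is not analysed here.

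Grin2c, the GluN2C gene, which in the cerebellum is known from mature granule cells (chromosome 11, 115249169 to 115267243, minus strand), differed most between the pools on the log2 scale given below. It had 0.86 TPM in pool 1 (0.674 to 1.08, from 73 counts) and 2.16 TPM in pool 2 (1.89 to 2.46, from 233), and these intervals did not overlap. Both of its transcripts have the same coding length of 3717 bases, and all of its TPM was full-length coding. Grin2c-201 took 83.74% in pool 1 and 83.7% in pool 2, so by this estimate the makeup of the gene was alike where its level was not. By the posterior mean it took 76.46% and 81.06%. The posterior mean for Grin2c-202 was 18.58 ± 9.55 counts in pool 1 and 48.69 ± 17.1 counts in pool 2 (posterior SD), so the makeup is known only roughly.

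Grin2d (chromosome 7, 45831883 to 45878378, minus strand) had 0.2 TPM in pool 1 (0.124 to 0.306, from 21 counts) and 0.22 TPM in pool 2 (0.147 to 0.316, from 29), all of it Grin2d-201. Those levels differed by less than counting error. Kdelr1, a gene at 12.76 and 9.58 TPM, overlaps Grin2d on the opposite strand, and the labels and notes used here state no strand setting.

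As shares of the GluN2 sum by gene TPM, Grin2b took 72.42% in pool 1 and 64.2% in pool 2, Grin2a 19.03% and 16.21%, Grin2c 6.94% and 17.78%, and Grin2d 1.61% and 1.81%. By full-length coding TPM the shares of Grin2b were 31.76% and 17.84%, those of Grin2a 37.06% and 17.84%, and those of Grin2c 25.29% and 58.38%. A further measure, the expected counts of each gene divided by the effective length of its leading full-length transcript, gave 29.37% and 19.27% for Grin2b, 41.01% and 22.41% for Grin2a, and 24.16% and 53.13% for Grin2c. Both of these measures placed Grin2b below Grin2a by the mean of the pools, and neither separated Grin2a from its neighbours Grin2b and Grin2c, since the pool values overlapped.

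**Figure D2:**
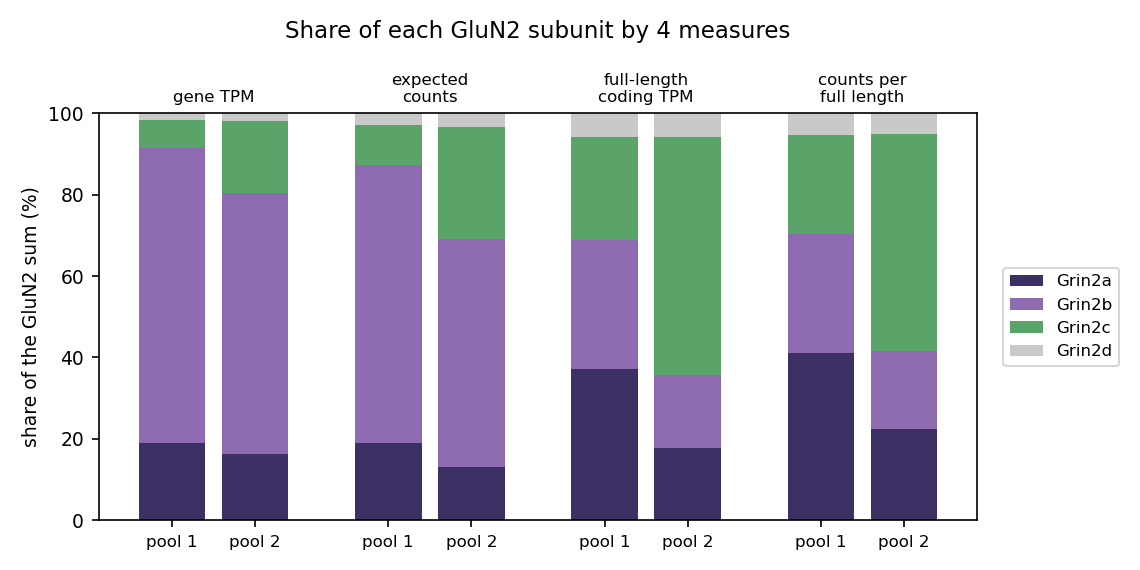
Share of Grin2a, Grin2b, Grin2c and Grin2d in the summed GluN2 level (%, stacked to the full sum) in pool 1 and pool 2 by gene TPM, expected counts, full-length coding TPM and counts divided by the length of the leading full-length transcript. Grin2b fills 72.42% and 64.2% of the bars by gene TPM and 31.76% and 17.84% by full-length coding TPM, while Grin2c in pool 2 reaches 58.38%.

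Of the GluN3 subunits, Grin3a was present in both pools and Grin3b was barely detected. Grin3a, whose glycine-binding product lowers calcium permeability and magnesium block (chromosome 4, 49661611 to 49845744, minus strand), had 3.39 TPM in pool 1 (3.09 to 3.71, from 470 counts) and 2.54 TPM in pool 2 (2.31 to 2.78, from 454). Pool 1 lay above pool 2 by more than counting error. Grin3a was the third gene of the family by gene TPM and the second by full-length coding TPM, with 3.07 and 2.37. Its pool ranges overlapped those of no other member under either measure. Nearly all of it was Grin3a-201, with 90.69% and 93.43% of the gene's TPM. The other full-length form, Grin3a-202, has 20 additional codons (chr4:49665566-49665625), shown because they are all that tells the forms apart.
Grin3a insert: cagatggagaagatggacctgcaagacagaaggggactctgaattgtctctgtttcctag
Grin3a-202 was listed at 0 in both pools. Its posterior mean was 39.67 ± 40.6 counts in pool 1 and 26.59 ± 27.3 counts in pool 2 (posterior SD), or 8.10% and 5.76% of the gene, which leaves 81.84% and 86.87% for Grin3a-201 by that estimate. A minor share of the inserted form was thus not measurable at this depth.

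Grin3b (chromosome 10, 79970715 to 79977190, plus strand) had 0.1 TPM in pool 1 from 6.32 counts and 0.04 TPM in pool 2 from 2.26 counts, with counting intervals of 0.0379 to 0.214 and 0.00581 to 0.135 TPM. No difference between the pools was detectable at this depth. It is known from motor neurons of the brain stem and spinal cord, and Tmem259, at 7.97 and 7.36 TPM, overlaps it on the opposite strand.

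**Figure D3:**
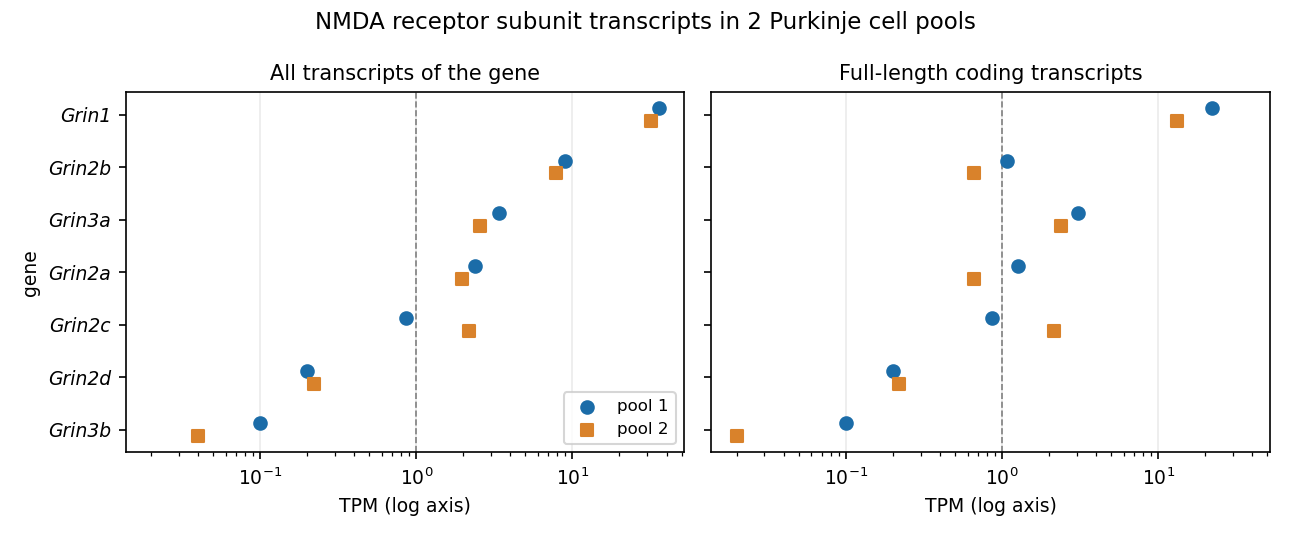
TPM of the 7 NMDA receptor genes in pool 1 (circles) and pool 2 (squares) on a log axis, from all transcripts of the gene (left) and from full-length coding transcripts (right), with a dashed line at a TPM of 1. Grin1 leads both panels, and Grin2b lies at 8.98 and 7.8 TPM on the left and at 1.08 and 0.66 TPM on the right.

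The order of the family was Grin1, Grin2b, Grin3a, Grin2a, Grin2c, Grin2d and Grin3b by mean gene TPM, and the only neighbours whose pool values overlapped were Grin2a and Grin2c. By full-length coding TPM it was Grin1 (17.63 ± 6.26), Grin3a (2.72 ± 0.495), Grin2c (1.51 ± 0.919), Grin2a (0.96 ± 0.424), Grin2b (0.87 ± 0.297), Grin2d (0.21 ± 0.0141) and Grin3b (0.06 ± 0.0566). Here Grin2c overlapped Grin2a, and Grin2a overlapped Grin2b. Only Grin1 and Grin3a reached a full-length coding TPM of 1 in both pools. The ratio of GluN1 to summed GluN2 was 2.87 in pool 1 and 2.64 in pool 2 by gene TPM. By full-length coding TPM it was 6.49 and 3.57, so Grin1 exceeded the GluN2 sum in both pools by both measures, and by a margin that the measure sets.

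Between the pools, 5 of the 7 genes (Grin1, Grin2a, Grin2b, Grin3a and Grin3b) were higher in pool 1 as TPM, as were 53.0% of 22413 named genes with a TPM above 0 in either pool. With the spike-ins as the scale 0 of 7 were, and 3.68% of those genes, since that scale lowers every difference by the median of 49 spike-ins (0.69 on the log2 scale). These counts thus say little about the family. On the log2(TPM + 1) scale, which understates changes of low genes, the differences of pool 1 minus pool 2 were 0.15 for Grin1, 0.18 for both Grin2a and Grin2b, 0.31 for Grin3a and -0.76 for Grin2c. Over all genes at a mean TPM of 1 to 10 the SD of this difference was 0.53, and at 10 to 100 it was 0.35.

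Of the 5 members with a mean TPM of 1 or more, Grin2c lay outside 1 SD of genes of like level by gene TPM. Grin1 and Grin2a did so as well, with pool 1 higher, under TMM and DESeq2 scaling of the counts and by full-length coding TPM. The difference of Grin1 was 0.50 with either scaling (SD of genes of like level 0.33) and 0.70 by full-length coding TPM (SD 0.33). For Grin2a it was 0.49 with either scaling (SD 0.41) and 0.45 by full-length coding TPM (SD 0.34). Grin2c kept its direction under each of these scales. The share of all genes outside 1 SD is not given here for any scale, so these calls do not set the members apart from other genes. The pool difference of all genes also ran with transcript length, with a median of -0.11 under 1000 nt and 0.25 at 4000 nt or more.

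By gene TPM a fold of at least 1.5 between the pools was seen for 1 of these 5 members, Grin2c, which was 2.51-fold higher in pool 2. Of 13104 genes whose mean TPM was 1 or more, 11.5% were past that fold with pool 1 higher and 6.68% with pool 2 higher, so 1 member in 5 says little about the family. By full-length coding TPM, 3 members had a mean of 1 or more, and Grin1 was 1.67-fold higher in pool 1 while Grin2c was again 2.51-fold higher in pool 2. Of 10149 genes at that level by the same measure, 12.0% were past the fold with pool 1 higher and 4.87% with pool 2 higher. Below that level, Grin2a was 1.91-fold, Grin2b 1.64-fold and Grin3b 5.0-fold higher in pool 1, the last at 0.1 and 0.02 TPM. Grin2d was 1.1-fold higher in pool 2. The share of all genes past 1.5-fold at such low levels is not given here, so these folds say little about the family.

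Markers of some other cell types were mostly higher in pool 2, as Grin2c was, and those of others were mostly higher in pool 1. Of the 11 granule cell markers 10 were higher in pool 2, among them Gabra6 (38.47 TPM in pool 1 and 51.21 TPM in pool 2) and Neurod1 (23.64 and 30.66), against 46.0% of the 22413 genes, and none of the 9 with a mean TPM of 1 or more was past 1.5-fold. Of the 5 blood markers, 4 were past 1.5-fold with pool 2 higher, against 6.68% of the 13104 genes whose mean TPM was 1 or more. The other, Alas2, was past it with pool 1 higher (2.22 and 1.43 TPM), as were 11.5% of those genes. Sst, in the Golgi and glycinergic interneuron list, had 1.01 TPM in pool 1 and 13.35 TPM in pool 2. The other genes of that list differed far less, with Lgi2 at 6.43 and 6.96 TPM and Slc6a5 at 0.98 TPM in both pools. Molecular layer interneuron markers were split, with Prkcd at 9.83 and 38.65 TPM but Nxph1 at 16.37 and 11.16 TPM, and 4 of the 7 were higher in pool 1. Of the 11 Bergmann glia and astrocyte markers, 7 were higher in pool 1 and 4 in pool 2. Of the 8 oligodendrocyte markers, 6 were higher in pool 1 and 2 in pool 2, against 53.0% of the 22413 genes higher in pool 1. The part of RNA of these cells in the level of Grin2c, or of any other member, was not tested.

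**Figure D4:**
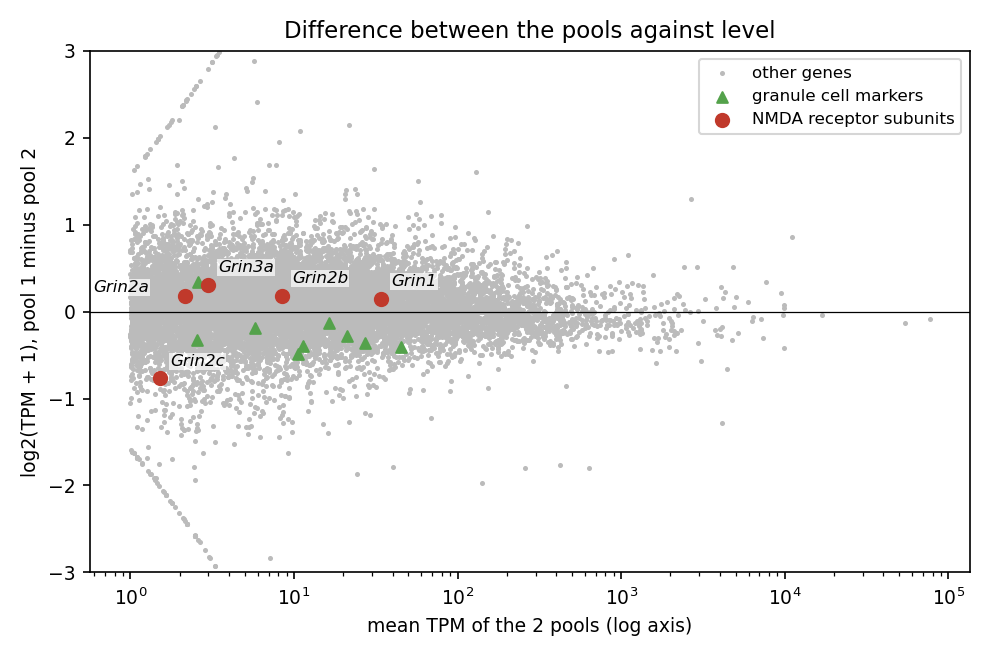
Difference of log2(TPM + 1), pool 1 minus pool 2, against mean TPM (log axis) for the 13104 genes whose mean TPM was 1 or more, with 5 NMDA receptor genes as circles and 9 granule cell markers as triangles, 20 genes lying beyond the axis limits. Grin1, Grin2a, Grin2b and Grin3a lie just above 0 within the bulk of genes, and Grin2c lies at -0.76.

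The NMDA receptor genes were low beside the AMPA and metabotropic glutamate receptor genes of the same pools. Their 7 genes summed to 51.47 TPM in pool 1 and 46.79 TPM in pool 2. The 4 AMPA receptor genes, led by Gria2, summed to 10.7 and 7.32 times as much, and the 8 metabotropic receptor genes to 2.81 and 2.31 times. The 5 kainate receptor genes were lower, at 0.679 and 0.657 times the NMDA sum. NMDA receptor genes made up 5.61% of the ionotropic and delta receptor TPM in pool 1 and 7.62% in pool 2. These ratios and shares are by gene TPM. By full-length coding TPM the NMDA receptor genes summed to 28.63 TPM in pool 1 and 19.29 TPM in pool 2. Each AMPA receptor gene alone lay above that sum in both pools, from Gria4 (66.44 and 51.1 TPM) to Gria2 (143.3 and 93.88 TPM). Full-length values of the other families are not given here. The differences between the families were not tested.

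Single receptor genes of like level were found among 19 genes of the AMPA, kainate, delta and metabotropic families, by the summed absolute difference of log2(TPM + 1) over both pools. Grin1 was nearest to the presynaptic metabotropic receptor gene Grm7 (28.95 and 21.24 TPM, a summed difference of 0.86). Grin2b was nearest to Grm3 (8.25 and 5.8 TPM, 0.48), which is also a gene of astrocytes. Both Grin2a (0.24) and Grin3a (0.40) were nearest to the kainate receptor gene Grik4, at 2.46 and 2.4 TPM, and Grin2c to Grik5 (1.16 and 1.31 TPM, 0.67). For Grin2d and Grin3b the nearest was Grm6, listed at 0.

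Genes of proteins that supply, bind or act on NMDA receptors were mostly present, as were calcium-dependent effectors and transcriptional and splicing regulators. Over these 7 lists, called partner lists here, 95 of 112 genes (84.8%) reached a TPM of 1 in both pools. That stands against the 51.7% of protein-coding genes given above. The median of the 112 genes was 14.48 TPM in pool 1 and 13.07 TPM in pool 2, and that of all protein-coding genes 1.495 and 1.455 TPM. Most of these proteins have other partners too, so their presence is not specific to the receptor.

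Glycine and D-serine, the co-agonists of the GluN1 site, are covered by a list of 14 genes, of which 11 were detected. Gcsh (142 TPM in pool 1 and 113 TPM in pool 2) and Dld (141 and 101) led it. Both belong to the glycine cleavage system, which degrades glycine. Other genes of that system were lower, with Amt at 30.74 and 23.62 TPM and Gldc at 5.35 and 5.39 TPM. The third gene of the list was Slc7a10, a transporter of small neutral amino acids that include D-serine (44 and 53.51). Slc6a5, the neuronal glycine transporter (0.98 TPM in both pools), Slc38a5 and Slc1a5 were under the threshold. Serine racemase, which makes D-serine from the gene Srr, had 21.07 and 12.4 TPM, and D-amino acid oxidase, which degrades it from the gene Dao, 10.52 and 7.77 TPM.

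Of 13 scaffold genes 9 were detected, led by the neurofilament light chain gene Nefl (69.34 TPM in pool 1 and 61.09 TPM in pool 2), Dlgap1 (58.9 and 54.21) and Dlg2, which encodes PSD-93 (71.02 and 38.84). Dlg4, the PSD-95 gene, had 2.2 and 1.21 TPM and so lay far below Dlg2 in both pools, and Dlgap2, Dlgap3 and Actn2 were under the threshold in each. All 14 genes of transport and surface trafficking were detected, with Ap2m1 (192 and 187), the early endosome GTPase gene Rab5a (108 and 82.6) and the ubiquitin ligase component Fbxo2 (36.37 and 40.04) highest. Kif17, the kinesin that carries GluN2B vesicles in dendrites, had 4.97 and 4.88 TPM.

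Among 14 auxiliary and extracellular modulators 11 were detected, with Grina (163 TPM in pool 1 and 138 TPM in pool 2) and Serpine2 (105 and 79.2) among the highest and Neto1 and Ephb1 under the threshold in each pool. Grina is named as glutamate receptor associated and is not a channel subunit. Of 22 kinases and phosphatases 20 were detected, among the highest of them protein phosphatase 1 alpha (Ppp1ca, 218 and 246) and the casein kinase 2 subunit Csnk2b (228 and 234). Dapk1 and Ptpn5, a tyrosine phosphatase of GluN2B, were under the threshold.

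Calcium-dependent effectors were detected for 14 of 18 genes, among the highest of them the calmodulin genes Calm2 (8544 TPM in pool 1 and 6773 TPM in pool 2) and Calm3 (187 and 190). Near-identical copies of these genes may share their reads, which makes the levels less certain. Panx1, Trpm4 and Rasgrf2 were under the threshold in both pools. The list of transcriptional and splicing regulators, which holds the repressor REST and RNA-binding proteins, had 16 of 17 detected, led by Srsf5 (242 and 237), Hnrnph1 (73.1 and 75.29) and Hnrnpa1 (79.33 and 65.42). Rest had 1.65 and 1.66 TPM, and Nova2 was under the threshold.

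**Figure D5:**
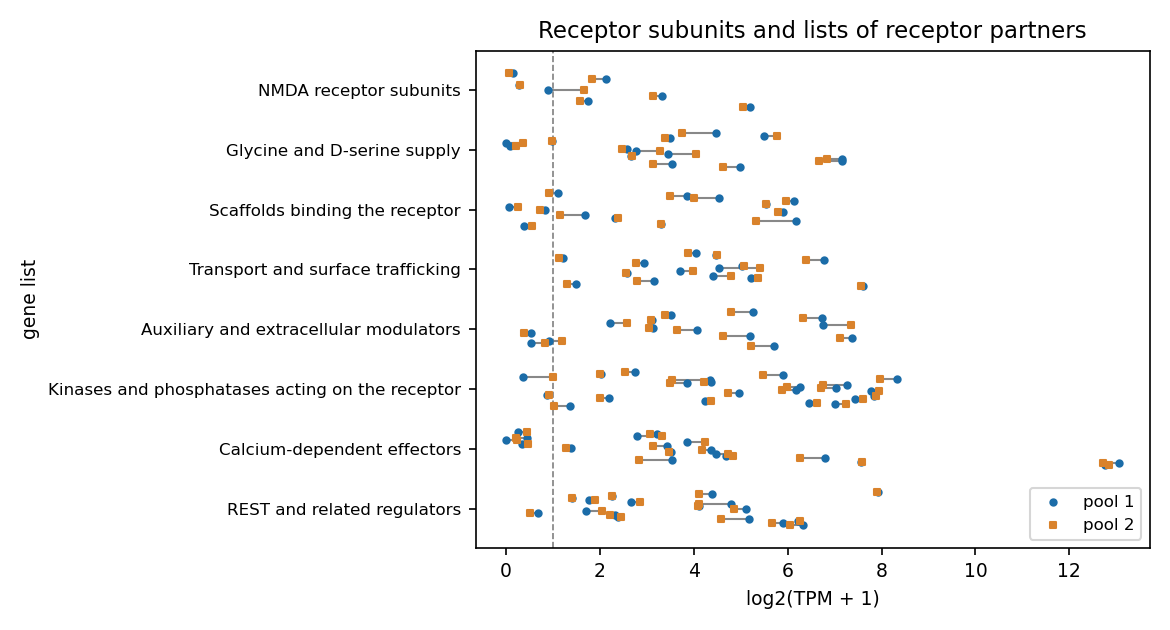
Levels as log2(TPM + 1) of the 7 NMDA receptor genes and of 112 genes in 7 lists of partners, effectors and regulators. Pool 1 is shown as circles and pool 2 as squares, with a line joining the pools of each gene and a dashed line at a TPM of 1. In the lists 95 of 112 genes lie at or right of that line in both pools, against 4 of the 7 receptor genes.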

How the data were processed

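Laser capture is given by the labels' protocol links. For library preparation, pool 2 has a link to a Smart-seq protocol and pool 1 has none. Genes and transcripts were quantified by the authors against GENCODE release M4 on mm10, per the accompanying notes. Neither the labels nor the notes used here name an aligner, a quantifier or a strand setting. Expected counts were deposited as estimated reads per gene or transcript, with no normalization. The deposited TPM values were corrected for effective length by the authors and scaled to the same total per library, spike-ins included. The deposited percent of each transcript is its share of the gene's TPM, and the deposited posterior SD of counts, a value of another kind, was used as its estimation error.

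Symbols, exons and coding sequences were taken from GENCODE release M21 (GRCm38), and 42462 of 43346 mouse genes were named. Entries with numeric identifiers (26248) were left out. A gene was detected at a TPM of 1 or more in both pools, and log values used a pseudocount of 1. Counting intervals are exact Poisson at 95%, cover counting error only and treat amplified reads as if they were independent. They scale the gene's TPM by its total count, as if each read carried the same TPM. Where a short transcript holds much of the TPM from few counts, as in Grin1, Grin2a and Grin2b, they are too narrow. Other scales came from expected counts rounded to whole numbers, with edgeR 4.0.16 TMM and DESeq2 1.42.0 size factors in R 4.3.3, without a test. Other steps used Python 3.11.15, numpy 2.4.6, pandas 2.3.3 and scipy 1.17.1, and matplotlib 3.10.9 drew the figures.

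The members, gene lists and alternatives were chosen with earlier results of these data known. The full-length coding measures, their limit of 90%, the counts per leading full-length transcript, the spread of pool differences on other scales and the count-based cassette shares were chosen after the values were seen. All members were named, with the 3 highest genes of each partner list, the 2 highest of each marker list and any listed gene under the threshold in both pools. Grin1 transcripts of at least 5% and the leading transcript of each other gene were named. Srr, Dao, Amt, Gldc, Dlg4, Kif17, Rest, Grin1-202, Grin1-206, Grin2b-205, Grin3a-202 and the other Grin1 transcripts with C1 were named outside these rules, after their values were seen. The values of some genes that these rules would name are not reported here.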

Additional observations from a re-analysis of the deposited data

How the results depend on the processing

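No paired analysis was possible because the study has 1 group. Leaving out each pool gives single values, from 68.52% to 69.13% for the Grin1 share of the family TPM, 64.2% to 72.42% for Grin2b among GluN2, 2.64 to 2.87 for GluN1 over GluN2, 21.55% to 39.9% for Grin1-205, 30.08% to 49.09% for Grin1-209, 34.45% to 42.5% for the N1 share, 4 to 5 members detected, and 96 partner genes without either pool. The Grin1 share, 68.82% by gene TPM, was 57.57% by expected counts, 68.36% by posterior mean TPM, 72.74% by full-length coding TPM and 74.83% by counts over the leading full-length transcript. Grin2b among GluN2, 68.31%, was 62.09% by expected counts, 24.8% by full-length coding TPM and 24.32% by counts over full length, and GluN1 over GluN2, 2.75, was 2.19, 5.03 and 5.44 by the same measures. Expected counts are not corrected for length. Full-length coding TPM leaves out all other transcripts, and counts over full length divide by the length of the leading full-length transcript. How much any single transcript or length adds to these shifts was not tested. Members detected, 4 in the main count, were 5 at a TPM of at least 0.5, 6 at 10 or more expected counts, 2 at a TPM of at least 5 and 2 by full-length coding TPM. Members higher in pool 1 were 0 of 7 with the spike-ins as the scale, and 5 of 7 with a pseudocount of 0.1, TMM with or without a filter on low counts, DESeq2 size factors or full-length coding TPM. Grin1-205 was 58.36% of protein-coding transcripts only. Of 63 other values under an alternative, leaving out a pool aside, 39 moved by less than 1 SD and 24 by more, without a test. That SD is the one between the pools or, for a pool difference, the one over genes of like level. With 2 pools, leaving out one cannot move a mean by 1 SD, so those ranges are no check of stability. Grin3b, with under 10 counts per pool, is limited by depth.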
